A study of Mus musculus with 32 samples.

Results

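Foxf1, Foxf2, Foxc1, Foxc2, Twist1, Twist2, Osr1, Meox1, Meox2 and Pax1, 10 transcription factor genes of mesenchyme and sclerotome, were followed through the differentiation of mouse embryonic stem cells in the presence of bisphenols. They were chosen by name, in part for their higher level with bisphenols in these same libraries, and were matched by symbol to Entrez identifiers. All 10 were found among the 20612 genes listed in any of the 32 libraries, and all 10 passed the filter on low counts that left 15632 genes for testing. Because the difference between bisphenols and solvent helped to choose these genes, it is described here for them with no test.

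The cells were J1 embryonic stem cells (ESCs), a line of strain 129S4/SvJae, and their differentiated progeny. Each culture was given a bisphenol at 100 nM, namely bisphenol A (BPA), F (BPF) or S (BPS). Control cultures had dimethyl sulfoxide (DMSO), the solvent, alone. Embryoid bodies (EBs) are aggregates in which stem cells differentiate into many cell types at once. ESCs were taken at day 0 and EBs at day 4, before the global and neural paths parted. On the global path EBs were taken at days 6, 9, 12 and 20. On the neural path EBs that had been in retinoic acid (RA) for 4 days were taken at day 8. Neural progenitor cultures (NPCs) of that path were taken at day 10. The 8 stages and 4 treatments gave 32 libraries, 1 for each combination. A treatment effect at a stage therefore rests on 1 DMSO library, where treatment and library cannot be told apart. All cells come from 1 cell line, and nothing in the labels says that libraries came from separate cultures, so p-values measure only the spread between these samples.

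Mesenchyme is the loose embryonic tissue that gives rise to connective tissue, smooth muscle, cartilage and bone. In the embryo, paraxial mesoderm forms somites, and the ventral part of a somite becomes sclerotome, the precursor of vertebrae and ribs, under Hedgehog signals from the notochord and floor plate. Foxc1 and Foxc2 are forkhead factors of paraxial mesoderm, vessels and neural crest mesenchyme, and Foxf1 and Foxf2 are forkhead factors of the mesenchyme around gut and lung, which also receives Hedgehog signals. Twist1 and Twist2 are basic helix-loop-helix factors of mesenchyme, Osr1 is a zinc finger factor of intermediate and lateral plate mesoderm, Meox1 and Meox2 are homeodomain factors of somites, and Pax1 is a paired-box factor of sclerotome and of the pharyngeal pouches. RA is a patterning signal for somites and for the posterior nervous system.

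The promoters of Twist1, Foxc1 and Pax1 are printed because Twist1 reached the highest level of the 10 genes, Foxc1 followed Twist1 most closely over the libraries, and Pax1 had the widest difference between bisphenol and DMSO libraries at 1 stage. Each is the RefSeq sequence (build GRCm38.p6, plus strand) from 250 bases before to 50 bases after an annotated start, at chr12:33957421-33957720 for Twist1, chr13:31806396-31806695 for Foxc1 and chr2:147364744-147365043 for Pax1. Capitals mark a GC box (GGGCGG or its complement) and, in Twist1, a TATA box (TATAAA).
Twist1: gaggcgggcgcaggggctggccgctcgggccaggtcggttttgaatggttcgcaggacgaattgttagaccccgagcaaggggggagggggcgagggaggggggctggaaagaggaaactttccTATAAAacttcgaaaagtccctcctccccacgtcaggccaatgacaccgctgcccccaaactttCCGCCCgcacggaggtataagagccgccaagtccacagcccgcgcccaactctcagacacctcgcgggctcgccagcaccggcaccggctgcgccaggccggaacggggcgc
Foxc1: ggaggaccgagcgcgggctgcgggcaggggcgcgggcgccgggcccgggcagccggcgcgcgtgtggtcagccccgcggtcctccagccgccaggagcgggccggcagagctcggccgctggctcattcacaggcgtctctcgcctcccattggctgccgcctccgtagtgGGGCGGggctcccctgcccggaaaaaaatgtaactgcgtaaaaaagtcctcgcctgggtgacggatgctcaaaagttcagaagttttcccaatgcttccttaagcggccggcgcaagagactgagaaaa
Pax1: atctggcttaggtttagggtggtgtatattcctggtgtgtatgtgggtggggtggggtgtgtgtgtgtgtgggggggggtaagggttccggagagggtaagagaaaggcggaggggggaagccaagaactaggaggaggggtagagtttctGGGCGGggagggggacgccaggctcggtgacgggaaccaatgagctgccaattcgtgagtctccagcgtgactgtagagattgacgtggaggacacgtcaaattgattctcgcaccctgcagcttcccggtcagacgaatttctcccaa

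RefSeq promoters were matched for 6 of the 10 genes (Twist1, Twist2, Foxf2, Foxc1, Meox2 and Pax1). A GC box on either strand was found in 6 of these 6, against 35.7% of all 32851 promoters of the same length. Twist2 held 4 GC boxes, of which a pair lie end to end, and Foxf2 held 2. The GC content of the 6 promoters ran from 57.3% to 71.3%, against a median of 52.7% over all promoters, and they held 12 to 32 CpG dinucleotides each, against a median of 7. A TATA box was found in Twist1 and Meox2, against 13.6% of all promoters. An E-box (CANNTG) was found in Meox2 and Foxf2 alone of the 6, against 72.3%. The Twist-type E-box CATATG, the forkhead motif TGTTTAC, the GLI motif TGGGTGGTC and the homeobox motif TAATTA were in 0 of the 6, against 3.91%, 3.65%, 0.253% and 5.29% of all promoters. These are matches of letters and do not show that a factor binds.

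A library held between 9574833 and 11070149 expected counts in total and listed between 16326 and 17839 genes. The labels were checked against defining markers. The stem cell factor Pou5f1 was at 1.13 to 2.47 FPKM (fragments scaled to transcript length and to library depth) in the 4 NPC libraries and at 765 to 855 FPKM in the 4 ESC libraries. The neural factor Pax6 was at 12.8 to 19.6 FPKM in NPCs and at 0.40 to 0.75 FPKM in ESCs, and the neuronal tubulin Tubb3 at 1040 to 1103 FPKM in NPCs and 34.6 to 39.0 FPKM in ESCs. The neural progenitor factor Sox1 did not separate the stages in this way, at 4.35 to 5.63 FPKM in NPCs, 10.1 to 11.2 FPKM in EBs of day 20 and 3.51 to 4.79 FPKM in ESCs. In bulk RNA, fewer cells of a type and less RNA per cell cannot be told apart, and this holds for every level below. Unless another unit is named, levels are FPKM in BPA, BPF, BPS and DMSO libraries in that order.

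**Figure D1:**
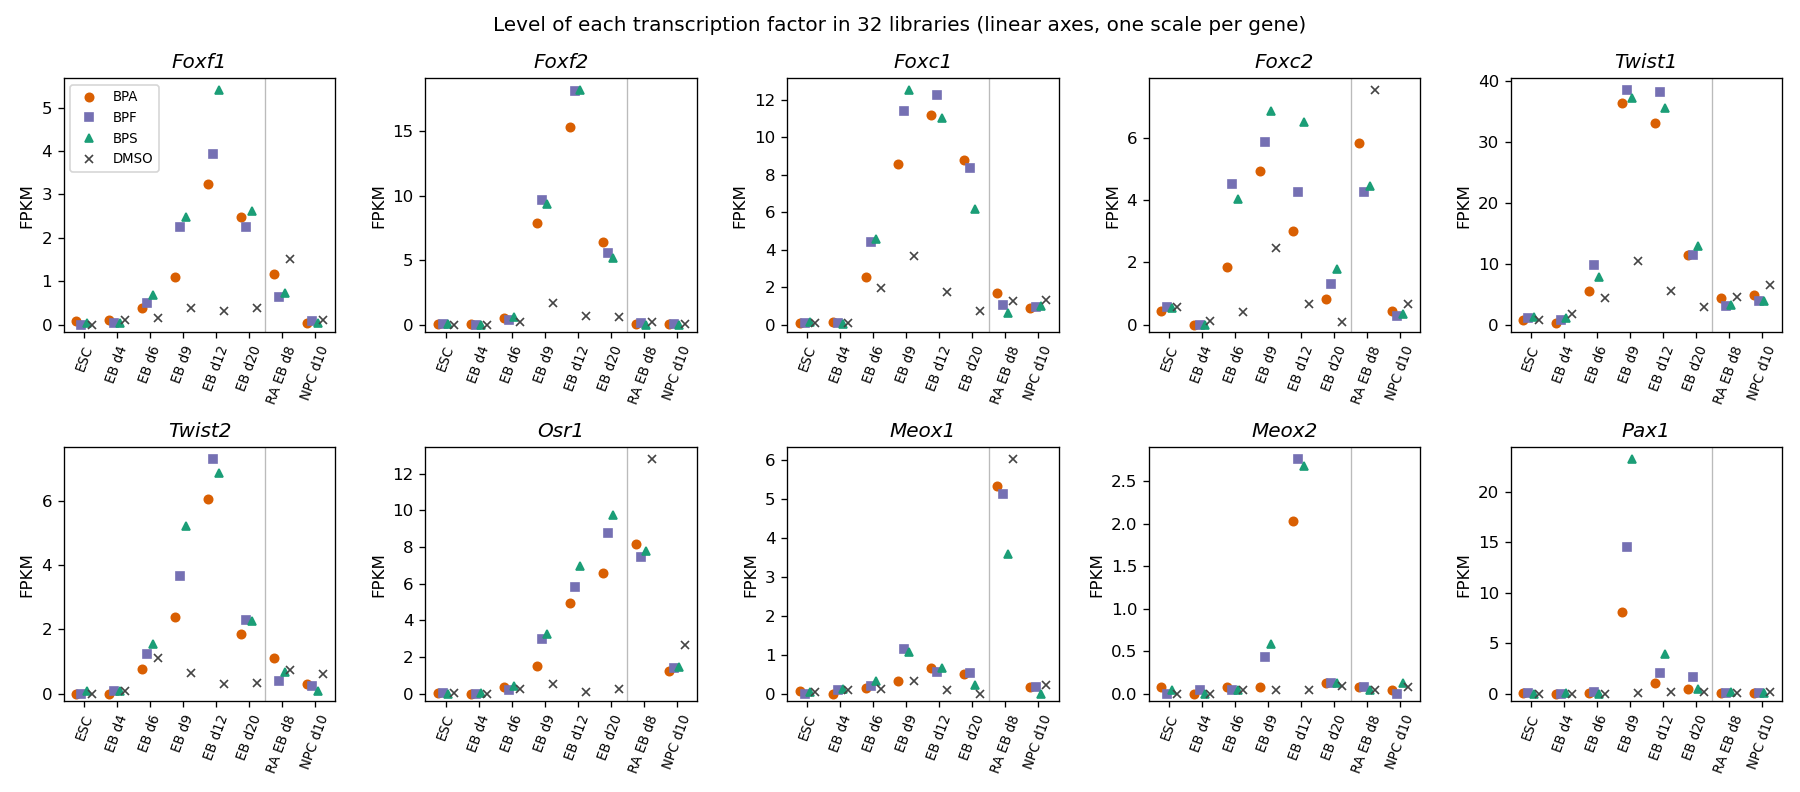
Level of each gene in FPKM (linear vertical axes, one scale per gene) at the 8 stages along the horizontal axis, with 1 point per library. A line parts ESCs, EBs of day 4 and the global path (left) from the neural path (right). At EB day 12 the bisphenol libraries of every gene lie above the DMSO library, for example Foxf2 at 15.3 to 18.2 FPKM in bisphenol libraries and 0.71 FPKM in DMSO, while Osr1 at RA EB day 8 has its highest point in DMSO at 12.8 FPKM.

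Levels of the genes were higher at EB days 6 and 9 than at day 4 and mostly lower at day 20 than at day 12, averaged over treatments. Stages were compared over their 4 libraries, 1 of each treatment, with edgeR's quasi-likelihood test over all genes, and a call needed an adjusted p (Benjamini-Hochberg) under 0.05 together with an absolute log2 change of at least 1. At EB day 6 against day 4, 6 of the 10 genes rose and 0 fell, against 10.8% and 8.75% of all genes tested. At EB day 9 against day 6, 8 rose and 0 fell, against 10.7% and 3.97%. At EB day 12 against day 9, 1 rose (Meox2) and 1 fell (Pax1), against 7.56% and 2.43%. At EB day 20 against day 12, 0 rose and 6 fell, against 17.6% and 8.78%. The median log2 change of the 10 genes over these intervals was 3.44, 1.88, 0.25 and -1.46, while that of all genes tested lay between -0.01 and 0.03. These comparisons draw on the bisphenol libraries whose levels helped to choose the genes, so they are not independent of that choice. Meox2 reached 1 CPM (a count scaled to the size of its library) in 4 bisphenol libraries and 0 DMSO libraries, and Pax1 in 8 and 0, so both passed the filter through bisphenol libraries alone, and their calls, although counted, are no support for a change with stage. In the DMSO libraries alone, 1 per stage and so without a test, 9 of the 10 genes had a higher level at EB day 6 than at day 4 and 0 a lower one, and 8 a higher and 1 (Twist2) a lower one at day 9 than at day 6. At day 12 against day 9, 1 was higher and 8 lower in DMSO, and at day 20 against day 12, 5 were higher and 5 lower. The share of all genes higher or lower in DMSO was not counted, and some of these differences are of 1 count. From EB day 4 to day 6 in DMSO, Meox2 went from 0 to 1 count and Meox1 from 2 to 3 counts. The count of calls at day 9 rests on several treatments, being 4 without the BPF libraries and 5 without the BPS libraries. The count of calls at day 12 was 1 without either of these and 4 without the DMSO libraries.

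On the neural path, 7 of the 10 genes rose in RA EBs of day 8 against EBs of day 4 and 0 fell, against 19.0% and 15.7% of all genes. The samples hold no EBs of day 8 without RA, so RA and age cannot be told apart in this comparison. In NPCs against RA EBs, 0 rose and 4 fell, against 18.1% and 17.4%. NPCs of day 10 were also compared with the global EBs nearest in age, those of days 9 and 12 averaged. There 0 of the 10 rose and 9 fell, against 16.4% and 22.4%, with Osr1 the gene not called (log2 change -0.52, adjusted p = 0.39). This difference rests on the bisphenol libraries, since in DMSO alone 5 of the 10 genes were lower in NPCs than in the mean of these EBs (the forkhead genes and Twist1) and 5 were higher. In DMSO, Osr1 was at 2.65 FPKM in NPCs, against 0.55 and 0.10 FPKM at EB days 9 and 12, and Twist2 at 0.60 FPKM in NPCs, against 0.63 and 0.30 FPKM. In RA EBs against EB day 4, 10 of 10 were higher in DMSO alone, and in NPCs against RA EBs 6 were lower and 4 higher. For Meox2 the former is a difference of 0 and 1 counts, and the share of all genes was not counted in DMSO. The median log2 change of the 10 was 3.52, -1.19 and -3.11 in these comparisons, and that of all genes 0.03, -0.01 and -0.07.

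**Figure D2:**
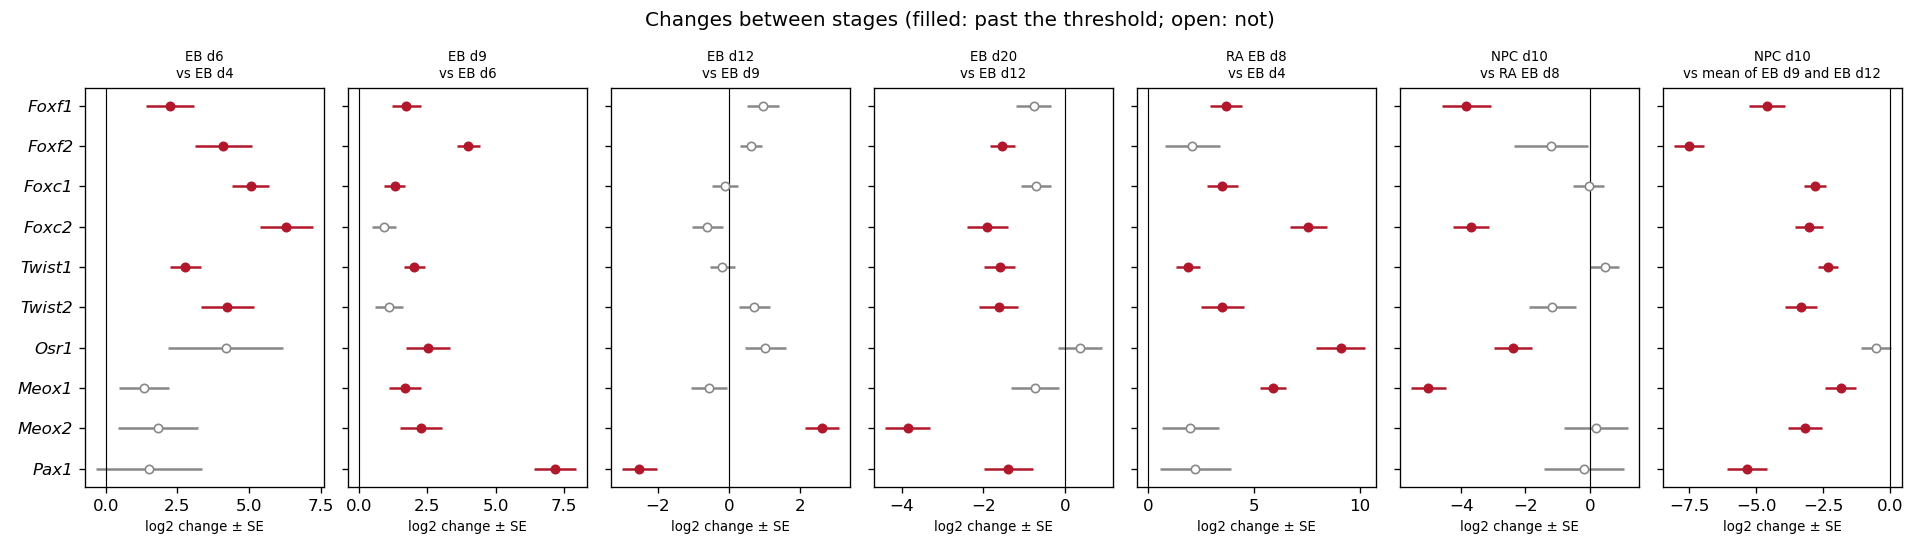
Log2 change ± SE from edgeR (horizontal axes, a scale for each comparison) of the 10 genes in 7 comparisons of stages, filled where the gene was called. Filled points lie right of 0 in the comparisons of EB days 6 and 9 with the preceding EB stage and of RA EBs with EB day 4, and left of 0 for EB day 20 and for NPCs.

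Foxf1 (Entrez 15227, chr8:121084386-121088154, GRCm38.p6) and Foxf2 (Entrez 14238, chr13:31625816-31631406) were highest at EB day 12 in bisphenol libraries, but not in DMSO. The DMSO level of Foxf1 was highest in RA EBs, at 1.52 FPKM. Foxf2 was at 0.54, 0.35, 0.58 and 0.23 FPKM at EB day 6, at 7.87, 9.71, 9.34 and 1.68 FPKM at day 9, at 15.3, 18.1, 18.2 and 0.71 FPKM at day 12 and at 6.45, 5.60, 5.19 and 0.62 FPKM at day 20. All 3 bisphenol libraries were higher at day 12 than at any other stage, while the DMSO library was highest at day 9. Foxf2 rose at day 6 against day 4 (edgeR adjusted p = 0.001), and its ratio was 20.8-fold by summed counts (44 against 2 counts, 95% counting interval 5.43 to 177). Such intervals, here and below, cover counting error only and not the spread between libraries. Foxf2 rose at day 9 by 4.00 ± 0.42 log2 (SE, edgeR adjusted p = 9e-09) and fell at day 20 by 1.54 ± 0.31 log2 (adjusted p = 1e-04). The fall was not past the threshold in limma on log2(FPKM + 0.1) (adjusted p = 0.085). On the neural path Foxf2 did not exceed 0.23 FPKM in any of 8 libraries. In NPCs it was lower than in EBs of days 9 and 12 (log2 change -7.52 ± 0.57, edgeR adjusted p = 1.8e-12). The size of this change is uncertain, since each NPC library had only 0 to 2.01 expected counts. It also follows mainly the bisphenol libraries of the EBs. In DMSO Foxf2 had 0.97 expected counts in NPCs, against 43 and 17 at EB days 9 and 12.

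Foxf1 was at 1.10, 2.25, 2.47 and 0.38 FPKM at EB day 9, at 3.25, 3.92, 5.40 and 0.32 FPKM at day 12 and at 2.49, 2.25, 2.61 and 0.39 FPKM at day 20. Bisphenol and DMSO libraries did not overlap at any of these stages. In RA EBs it was at 1.17, 0.64, 0.74 and 1.52 FPKM, with the DMSO library highest. Foxf1 rose at EB day 6 (2.25 ± 0.84 log2, adjusted p = 0.025) and day 9 (1.74 ± 0.53 log2, adjusted p = 0.0078) and in RA EBs against EB day 4 (3.68 ± 0.74 log2, adjusted p = 7.5e-05), and fell in NPCs against RA EBs by 3.85 ± 0.76 log2 (adjusted p = 5.7e-05). The rise at day 6 was not past the threshold without the BPA, BPF or BPS libraries (adjusted p = 0.072, 0.13 and 0.18 in edgeR), and that at day 9 not without the BPF libraries (adjusted p = 0.074).

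Foxc1 (Entrez 17300, chr13:31806646-31810635) and Foxc2 (Entrez 14234, chr8:121116171-121118895) reached the highest levels among the forkhead genes at EB day 6. At EB day 4 Foxc1 was at 0.17, 0.07, 0.02 and 0.12 FPKM, and at day 6 at 2.52, 4.40, 4.56 and 1.98 FPKM. Every library of day 6 lay above every library of day 4, and Foxc1 rose by 5.05 ± 0.65 log2 (edgeR adjusted p = 2.5e-07). It stood at 8.58, 11.4, 12.5 and 3.67 FPKM at day 9, at 11.2, 12.2, 11.01 and 1.73 FPKM at day 12 and at 8.80, 8.37, 6.19 and 0.75 FPKM at day 20. The bisphenol libraries of days 9 and 12 overlapped, and so did those of days 9 and 20, while the DMSO library fell away after day 9. The rise at day 9 (1.30 ± 0.37 log2, adjusted p = 0.0049) was not past the threshold without the BPA libraries (adjusted p = 0.053). In RA EBs Foxc1 was at 1.70, 1.07, 0.61 and 1.26 FPKM, and in NPCs at 0.89, 0.97, 1.02 and 1.31 FPKM.

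Foxc2 reached its higher levels in EBs of day 9 and in RA EBs of day 8. It was listed at 0 in the 3 bisphenol libraries of EB day 4 (0.11 FPKM, 3 counts, in DMSO), and at day 6 it was at 1.86, 4.50, 4.02 and 0.40 FPKM. At day 9 it was at 4.92, 5.87, 6.85 and 2.47 FPKM, at day 12 at 2.99, 4.26, 6.49 and 0.65 FPKM and at day 20 at 0.83, 1.31, 1.80 and 0.08 FPKM. In RA EBs it reached 5.83, 4.27, 4.46 and 7.52 FPKM, so that the BPA and DMSO libraries were highest in RA EBs and the BPF and BPS libraries at EB day 9. The rise at EB day 6, counted against the 3 counts of day 4, was 102-fold by summed counts (323 against 3 counts, 95% counting interval 34.6 to 497). This ratio pools unlike treatments and follows mainly the bisphenol libraries. In DMSO Foxc2 went from 3 to 12 counts, and in BPA, BPF and BPS from 0 to 56, 136 and 119 counts. The rise in RA EBs was 207-fold by summed counts (651 against 3 counts, 95% counting interval 70.5 to 1006). Foxc2 fell at EB day 20 by 1.91 ± 0.51 log2 (edgeR adjusted p = 0.0017) and in NPCs against RA EBs by 3.69 ± 0.56 log2 (adjusted p = 1.5e-06).

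Twist1 (Entrez 22160, chr12:33957671-33959831) had the highest FPKM level of the 10 genes in any library, and in RA EBs stood below Osr1. It was at 5.62, 9.87, 7.81 and 4.36 FPKM at EB day 6, at 36.4, 38.5, 37.3 and 10.5 FPKM at day 9, at 33.2, 38.2, 35.6 and 5.59 FPKM at day 12 and at 11.5, 11.4, 12.9 and 2.90 FPKM at day 20. The bisphenol libraries of days 9 and 12 overlapped, and those of day 20 lay below both. Twist1 rose at day 6 (2.78 ± 0.54 log2, edgeR adjusted p = 8.7e-05) and at day 9 (2.02 ± 0.39 log2, adjusted p = 8.3e-05) and fell at day 20 by 1.60 ± 0.38 log2 (adjusted p = 0.00049). On the neural path it was at 4.32, 3.08, 3.16 and 4.53 FPKM in RA EBs and at 4.95, 3.82, 3.93 and 6.6 FPKM in NPCs, the highest NPC level of the 10 genes. Its rise in RA EBs against EB day 4 (1.91 ± 0.57 log2, adjusted p = 0.0041) was not past the threshold without the BPA libraries (adjusted p = 0.057).

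Twist2 (Entrez 13345, chr1:91801461-91848034) stayed lower than Twist1 in every library. It was at 0.76, 1.24, 1.54 and 1.12 FPKM at EB day 6, where the DMSO library lay among the bisphenol libraries. At day 9 it was at 2.38, 3.65, 5.2 and 0.63 FPKM, at day 12 at 6.06, 7.29, 6.87 and 0.30 FPKM and at day 20 at 1.86, 2.30, 2.25 and 0.32 FPKM. The bisphenol libraries did not overlap between these 3 days, and the DMSO library had its highest level at day 6. The rise at day 6, against 3 counts in all at day 4, was 21.1-fold by summed counts (67 against 3 counts, 95% counting interval 6.93 to 105). Twist2 fell at day 20 by 1.63 ± 0.47 log2 (edgeR adjusted p = 0.0036). This fall was not past the threshold in limma on log2(FPKM + 1) (log2 change -0.97) or on log2(FPKM + 0.1) (adjusted p = 0.1). In DMSO the level did not fall, at 0.30 FPKM on day 12 and 0.32 FPKM on day 20.

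Osr1 (Entrez 23967, chr12:9574442-9581500) was the only one of the 10 genes with a positive estimate at EB day 20 against day 12 (log2 change 0.38, edgeR adjusted p = 0.54). It was at 1.5, 3.0, 3.24 and 0.55 FPKM at EB day 9, at 4.96, 5.84, 6.99 and 0.10 FPKM at day 12 and at 6.56, 8.77, 9.77 and 0.27 FPKM at day 20. The DMSO library did not exceed 0.55 FPKM on these 3 days. In RA EBs Osr1 reached 8.15, 7.46, 7.76 and 12.8 FPKM, overlapping with bisphenol EBs of day 20, and in NPCs it was at 1.26, 1.41, 1.47 and 2.65 FPKM. Against 1 count in all at EB day 4, its level in RA EBs was 750-fold by summed counts (786 against 1 counts, 95% counting interval 134 to 29640). Its rise at EB day 9 (2.54 ± 0.80 log2, edgeR adjusted p = 0.0097) was not past the threshold without the BPF or the BPS libraries (adjusted p = 0.10 and 0.098), and it fell in NPCs against RA EBs by 2.39 ± 0.59 log2 (adjusted p = 0.00066).

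Meox1 (Entrez 17285, chr11:101877510-101894354) and Meox2 (Entrez 17286, chr12:37108540-37179534) parted between the paths. Meox1 was at 5.34, 5.13, 3.59 and 6.02 FPKM in RA EBs, and no library of another stage passed 1.16 FPKM. It rose in RA EBs against EB day 4 by 5.91 ± 0.60 log2 (edgeR adjusted p = 1e-09) and fell in NPCs by 5.03 ± 0.54 log2 (adjusted p = 3.1e-09). On the global path it rose at EB day 9 (1.69 ± 0.58 log2, adjusted p = 0.017), a call lost without the BPF or the BPS libraries (adjusted p = 0.16 and 0.055). Its decrease in NPCs against EBs of days 9 and 12 (log2 change -1.86, adjusted p = 0.0058) was not past the threshold without the BPS libraries (adjusted p = 0.092). This decrease rests on the bisphenol libraries. In DMSO alone Meox1 was at 0.22 FPKM in NPCs, against 0.33 and 0.09 FPKM at EB days 9 and 12. These DMSO levels rest on 5, 8 and 2 counts.

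Meox2 was at 0.08, 0.43, 0.58 and 0.04 FPKM at EB day 9, at 2.03, 2.76, 2.68 and 0.04 FPKM at day 12 and at 0.13, 0.13, 0.13 and 0.09 FPKM at day 20. The 3 bisphenol libraries of day 12 lay above the other 29 libraries, of which the highest was at 0.58 FPKM. In DMSO it had 1 count at each of days 9 and 12. The call at day 9 against day 6 (edgeR adjusted p = 0.018) was lost in limma on log2(FPKM + 1) and on log2(FPKM + 0.1) (adjusted p = 0.31 and 0.12), and in BPA and DMSO the levels were equal on these days. Without the BPF or the BPS libraries Meox2 did not pass the filter on low counts and had no test.

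Pax1 (Entrez 18503, chr2:147361930-147375049) was measured mainly at EB day 9. It did not exceed 0.21 FPKM in any library of EB day 6, and at day 9 it was at 8.06, 14.6, 23.2 and 0.04 FPKM. The level at day 12 was 1.02, 2.07, 3.96 and 0.17 FPKM, and at day 20 it was 0.43, 1.67, 0.45 and 0.18 FPKM. All 3 bisphenol libraries of day 9 lay above every other library, whereas the DMSO library never passed 0.18 FPKM at any stage. Its calls between stages therefore restate levels of bisphenol libraries. The call at day 20 against day 12 (edgeR adjusted p = 0.041) was lost without the BPA or the BPS libraries (adjusted p = 0.15 and 0.48), with RLE scaling (0.052), without the treatment term (0.11), in DESeq2 (0.28) and in limma (0.26 and 0.28). On the neural path Pax1 did not exceed 0.16 FPKM.

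Bisphenol libraries lay above the DMSO library for most of the genes on the global path and below it for most on the neural path. At EB day 6 all 3 bisphenol libraries were above DMSO for 6 of the 10 genes, against 29.6% of all genes tested. At day 9 this held for 9 of 10 (33.1% of all genes), with Meox1 tied between BPA and DMSO at 0.33 FPKM, and at days 12 and 20 for 10 of 10 (32.6% and 33.0%). In RA EBs all 3 bisphenol libraries were below DMSO for 6 of the 10 genes (37.5% of all genes), and in NPCs for 8 of 10 (24.6%). Since these differences helped to choose the genes, the counts describe them and are no evidence of an effect.

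Summed over the 10 genes, FPKM at EB day 9 was 71.2 in BPA, 90.5 in BPF and 101.8 in BPS, against 20.3 in DMSO. At EB day 12 the sums were 80.6, 95.2 and 97.8, against 9.70 in DMSO, and at EB day 20 they were 39.6, 42.3 and 41.6, against 5.60 in DMSO. The order was the other way in RA EBs, with 27.9, 22.4 and 21.2 in BPA, BPF and BPS and 34.8 in DMSO, and in NPCs, with 8.22, 7.10 and 7.09 and 12.4 in DMSO. The median over the 10 genes of the mean log2 ratio of bisphenols to DMSO (0.1 FPKM added to each level) was 0.73 at EB day 6, 1.89 at day 9, 3.16 at day 12 and 2.39 at day 20, and -0.37 in RA EBs and -0.64 in NPCs. Over all genes tested the median of the same ratio lay between -0.05 and 0.02 at these stages. In ESCs and EBs of day 4, where most of the genes were near 0, it was 0.31 and -0.24, and Twist1, with 0.23, 0.70, 1.05 and 1.77 FPKM at EB day 4, had its highest level there in DMSO.

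Several DMSO levels rest on 1 or 2 counts, so their ratios are given with 95% counting intervals, which cover counting error only. At EB day 9, Pax1 had 1282 counts in the 3 bisphenol libraries together and 1 in DMSO, a ratio per library of 434 (77.8 to 17160). At EB day 12, Osr1 had 367 and 2 counts, a ratio of 60.9 (16.8 to 505), and Meox2 179 and 1, a ratio of 59.4 (10.5 to 2361). Foxc2 at EB day 20 had 106 and 2 counts, a ratio of 17.3 (4.66 to 144). Meox2 at EB day 9 had 27 and 1 counts, a ratio of 9.15 (1.51 to 374), and Meox1 at EB day 12 had 43 and 2, a ratio of 7.14 (1.86 to 60.8). Where DMSO had more than 3 counts, the mean FPKM of the 3 bisphenol libraries was divided by the DMSO level, without an interval. At EB day 12 this ratio was 24.2 for Foxf2 (17 DMSO counts), 22.5 for Twist2 (4 counts) and 6.37 for Twist1 (94 counts). For Osr1 at EB day 20 it was 31.0 (5.19 expected counts in DMSO). The ratios of Twist2 and Osr1 thus also rest on few DMSO counts and are imprecise. In RA EBs the mean was 0.61 times the DMSO level for Osr1, 0.65 times for Foxc2 and 0.56 times for Foxf1. Of the 10 genes, 5 had all 12 bisphenol values of EB days 6 to 20 above DMSO of the same day. All 6 values of the neural path were below DMSO for 5. The share of all genes with such values was not counted, so these counts are a description only.

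**Figure D3:**
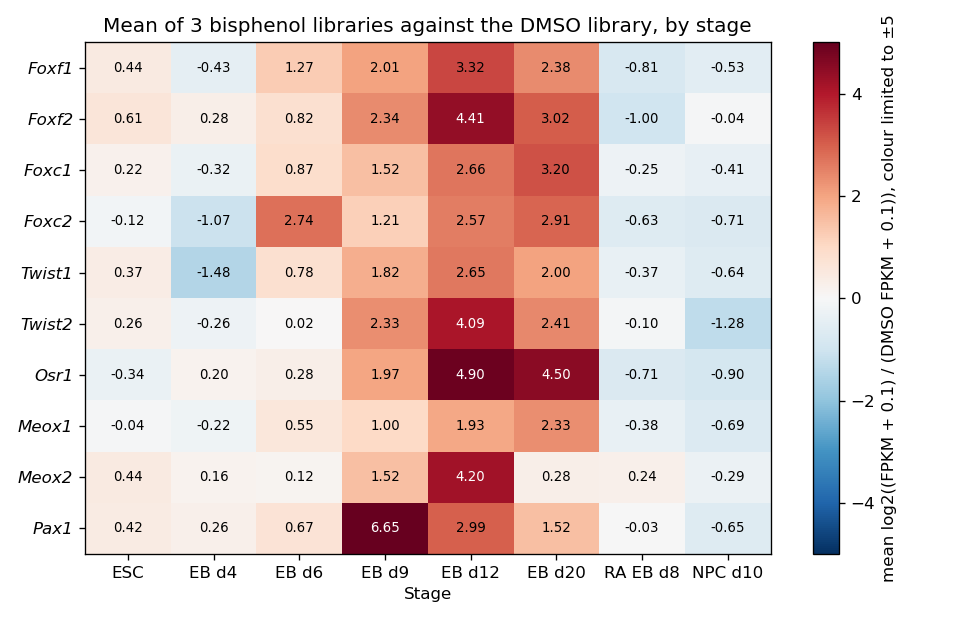
Mean log2 ratio of the 3 bisphenol libraries to the DMSO library (colour and printed value, 0.1 FPKM added to each level, colour limited to ±5) for each gene and stage. Values are above 0 from EB day 6 to day 20, from 0.02 for Twist2 at day 6 to 6.65 for Pax1 at day 9, and in NPCs all 10 are below 0, with the one for Foxf2 at -0.04.

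The compounds differ in the bridge between the phenol rings, which is a carbon bearing methyl groups in BPA, a plain methylene in BPF and a sulfonyl in BPS. They were compared at the same dose over EB days 6, 9, 12 and 20 in the 3 possible pairs, a difference that the choice of genes did not use. None of the 10 genes was called in any pair by edgeR at an adjusted p under 0.05 over all genes of a pair, with no further adjustment over the pairs. Of all genes tested, 0% were called for BPA against BPF, 0.0471% (7 genes) for BPA against BPS and 0% for BPF against BPS. DESeq2 and limma also called 0 of the 10 genes in each pair. At an unadjusted p under 0.05, 2 of the 10 differed for BPA against BPF, 3 for BPA against BPS and 0 for BPF against BPS. The share of all genes under that unadjusted p was not counted.

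All 10 estimates were negative for BPA against BPF and for BPA against BPS, and 7 of 10 for BPF against BPS. However, the first and second of these pairs share the BPA libraries. Levels of some of the genes also rise and fall together (Pearson's r of 0.96 for Foxc1 and Twist1), so the signs are not independent. The share of all genes with negative estimates was not counted. Pax1 had the widest estimates, with a log2 difference of -1.21 (95% interval -2.33 to -0.10) for BPA against BPF and -1.40 (-2.48 to -0.32, edgeR adjusted p = 0.48) for BPA against BPS. Foxc2 was at -0.69 (-1.30 to -0.08) and -0.95 (-1.55 to -0.34, adjusted p = 0.36), and its BPA level was below its BPS level at each of the 4 days. Foxf1 was at -0.34 (-0.85 to 0.17) for BPA against BPF and -0.65 (-1.16 to -0.15, adjusted p = 0.48) for BPA against BPS. Twist1 had the narrowest intervals, at -0.23 (-0.67 to 0.22), -0.16 (-0.60 to 0.29) and, for BPF against BPS, 0.07 (-0.37 to 0.51). For BPF against BPS the 10 estimates ran from -0.31 (Foxf1) to 0.09 (Meox1), and their intervals reached from -1.23 to 1.05, so that differences of up to about that size could not be told from 0. The summed FPKM of cardiac markers moved in the same order of compounds, with 30.7 in BPA, 109 in BPF and 274 in BPS at EB day 12, against 2.92 in DMSO, and their part in these differences was not tested.

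**Figure D4:**
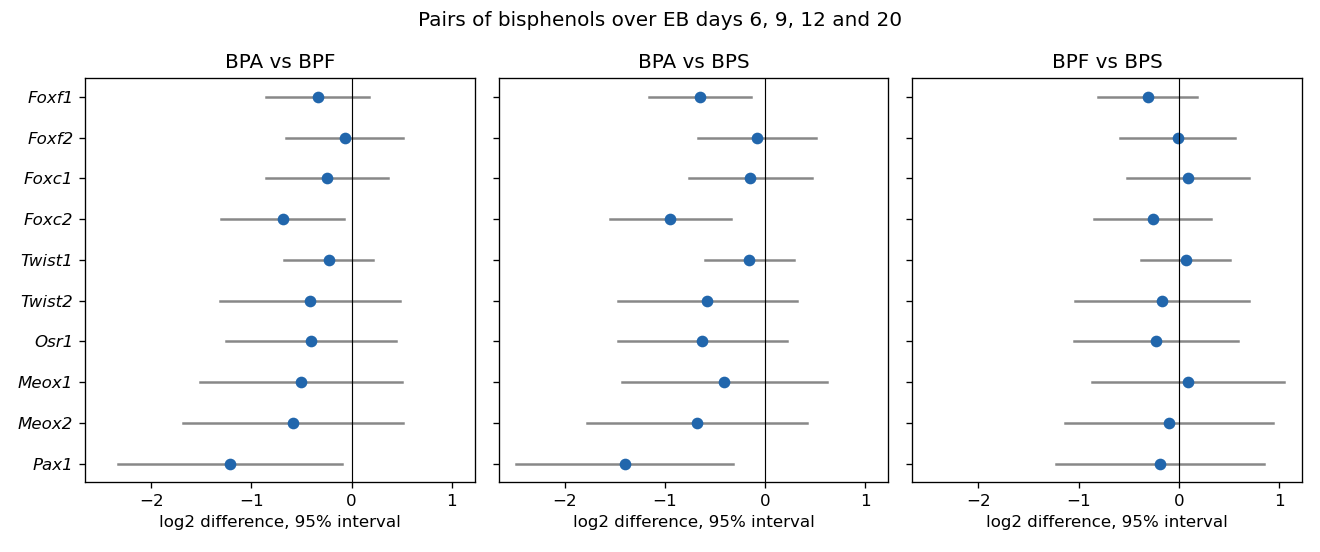
Log2 difference between bisphenols over EB days 6, 9, 12 and 20 with its 95% interval (horizontal axes) for each gene and pair of compounds. Points for BPA against BPF and BPA against BPS lie left of 0, down to -1.40 for Pax1, and none was past the threshold after adjustment.

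The genes that accompany these factors were compared between bisphenol and DMSO libraries at EB days 9, 12 and 20 and in NPCs. The fit took the 3 bisphenol libraries of a stage as 1 class and assumed that the lone DMSO library varies like the others, and genes were called at an edgeR adjusted p under 0.05. Of all genes tested, 4.01% were higher and 3.48% lower with bisphenols at EB day 9, 10.1% and 8.79% at day 12, 9.14% and 10.5% at day 20 and 0.313% and 1.94% in NPCs. The lists were drawn up with earlier results of these libraries known, so their direction is no independent evidence. Over all lists, 66 genes were called at EB day 9, and 41 without the BPF libraries.

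Fibroblast and mesenchyme effector genes (collagens, matrix proteins and growth factor receptors, 15 tested) were higher with bisphenols on the global path, 10 of them at EB day 9 with 1 lower, 13 at day 12 and 13 at day 20 with 0 lower, and 10 were lower in NPCs. At EB day 12 the collagen gene Col1a2 was at 71.3, 65.1 and 55.7 FPKM in BPA, BPF and BPS and 2.37 FPKM in DMSO (4.71 ± 0.27 log2, adjusted p = 5.3e-12). The matrix proteoglycan gene Lum was at 28.4, 24.3 and 31.9 FPKM and 1.28 FPKM in DMSO (4.41 ± 0.31 log2, adjusted p = 9.8e-10), while the microfibrillar collagen gene Col6a3 was at 1.11, 1.75 and 1.67 FPKM, against 0.02 FPKM in DMSO. At EB day 20, Col1a1, the other chain of type I collagen, was at 378, 475 and 504 FPKM, against 34.8 FPKM in DMSO. In NPCs Col1a1 was at 18.5, 16.8 and 27.1 FPKM, against 62.4 FPKM in DMSO (log2 change -1.58, adjusted p = 1e-04), and the matrix gene Fn1 at 31.7, 19.0 and 32.02 FPKM, against 80.3 FPKM in DMSO. Postn was the effector gene that was lower at EB day 9, at 99.8, 76.5 and 82.4 FPKM, against 166 FPKM in DMSO.

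Of 25 other mesenchyme transcription factors, 10 were higher at EB day 9, 17 at day 12 and 8 at day 20, with 0, 1 and 1 lower, and 1 (Prrx1) was lower in NPCs. Snai1, a zinc finger factor of epithelial-mesenchymal transition, was at 8.65, 11.9 and 13.4 FPKM at EB day 12 and 1.58 FPKM in DMSO (2.79 ± 0.42 log2, adjusted p = 2.5e-05). Hand1, a factor of lateral and extraembryonic mesoderm, was at 3.91, 8.09 and 13.5 FPKM, against 0.57 FPKM in DMSO. Tcf21, a factor of visceral mesenchyme, was at 0.88, 1.77 and 2.50 FPKM and was listed at 0 in DMSO. Prrx1 in NPCs was at 4.89, 5.70 and 6.28 FPKM, against 10.7 FPKM in DMSO (log2 change -0.91, adjusted p = 0.048).

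Sclerotome and cartilage genes (12 tested) were higher in 7 cases at EB day 9, 6 at day 12 and 1 at day 20, with 0, 0 and 1 lower, and 2 were lower in NPCs. Pax9, the close relative of Pax1, was at 2.49, 2.73 and 3.60 FPKM at EB day 9 and 0.48 FPKM in DMSO (2.57 ± 0.59 log2, adjusted p = 0.0057). The cartilage link protein gene Hapln1 was at 1.61, 4.36 and 5.08 FPKM, against 0.51 FPKM in DMSO, and the cartilage collagen gene Col9a1 at 3.36, 5.03 and 7.65 FPKM, against 0.74 FPKM in DMSO. The median log2 change of the list was 0.53 at EB day 9, against 0.00 over all genes. All 3 bisphenol libraries were then above DMSO for 9 of its 16 genes and below for 2, against 33.1% and 27.4% of all genes tested. Nkx3-2, a sclerotome homeobox gene, was at 0.58, 0.85 and 0.61 FPKM and listed at 0 in DMSO. It lies below the 1 FPKM set for naming and was picked after its values were seen, so it is no support.

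The Hedgehog list (14 tested) moved both ways. At EB day 9, 2 genes were higher and 4 lower, at day 12, 3 and 5, and at day 20, 4 and 0, with 0 called in NPCs. The ligand Shh was at 74.0, 62.8 and 49.1 FPKM at EB day 9, against 32.1 FPKM in DMSO (0.93 ± 0.17 log2, adjusted p = 6.8e-04), and the receptor and target Ptch1 at 75.5, 76.8 and 74.0 FPKM, against 50.2 FPKM in DMSO (0.57 ± 0.11 log2, adjusted p = 0.0015). The co-receptor Gas1 and the effector Gli3 were lower, with log2 changes of -0.94 and -0.65 (adjusted p = 7.7e-04 and 0.0021). Presomitic and somite genes (13 tested) were lower in 5 cases and higher in 1 at EB day 9, lower in 6 and higher in 2 at day 12, and higher in 3 and lower in 0 at day 20, and in NPCs 1 (Fst) was lower. Of this list, Pax3 was at 5.61, 3.45 and 3.54 FPKM at EB day 9, against 9.78 FPKM in DMSO. The retinoic acid synthase gene Aldh1a2 was at 13.5, 11.2 and 12.5 FPKM at EB day 20, against 0.69 FPKM in DMSO. The part of cells other than somite cells in these levels was not tested.

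Markers of other cell types moved in the same libraries. Of 10 endothelial markers, 7 were higher at EB day 9, 6 at day 12 and 2 at day 20, with summed FPKM of 27.0 to 51.0 in bisphenol libraries and 13.2 in DMSO at day 12, where Icam2 was listed at 0 in DMSO. Of 9 cardiac markers, 2 were higher at EB day 9, 8 at day 12 and 0 at day 20, with Ttn listed at 0 in DMSO. Of 9 neuronal markers, 7 were lower at EB day 9, 6 at day 12 and 5 at day 20, with a sum at day 12 of 577 to 718 FPKM in bisphenol libraries and 837 FPKM in DMSO, and of 8 neural progenitor markers 6 and 7 were lower at days 9 and 12, with a sum at day 12 of 533 to 625 FPKM and 809 FPKM in DMSO. At EB day 20, 3 neural progenitor markers were higher and 1 lower, and in NPCs 1 was higher. Of 5 skeletal muscle markers, 3 were higher at EB day 20, at a sum of 13.0 to 42.2 FPKM and 4.34 FPKM in DMSO. Neural crest markers (8 tested) were higher in 2 and lower in 2 at EB day 9 and in 3 and 3 at day 12, with 1 lower at day 20, and 1 of 7 pluripotency markers was lower at day 20. In NPCs, 0 of the endothelial, cardiac, neuronal, neural crest, skeletal muscle and pluripotency markers were called. The part of these cell types in the levels of the 10 genes was not tested.

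**Figure D5:**
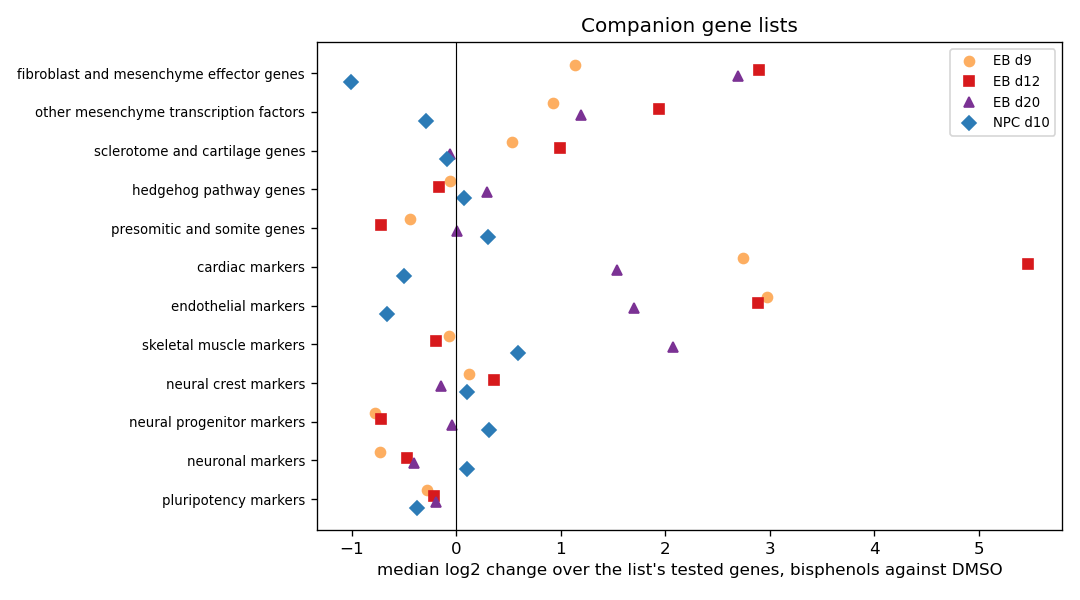
Median log2 change with bisphenols against DMSO (horizontal axis) over the tested genes of each of 12 lists at EB days 9, 12 and 20 and in NPCs. The effector list lies at 2.90 at EB day 12 and at -1.01 in NPCs, and the neuronal and neural progenitor lists lie at -0.47 and -0.72 at EB day 12.

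The 10 genes varied in how alike their courses were. Over the 32 libraries, which share stage and treatment, Pearson's r of log2(FPKM + 1) between pairs of them ran from 0.06 (Foxf2 and Meox1) to 0.96 (Foxc1 and Twist1). Foxf2 and Foxc1, 175 kb apart on chromosome 13, had an r of 0.91, and Foxf1 and Foxc2, 28.0 kb apart on chromosome 8, an r of 0.70. Other forkhead genes lie beside these pairs. Foxq1, 64.8 kb from Foxf2, was at 1.96, 2.49 and 2.39 FPKM and 1.11 FPKM in DMSO at EB day 9, at 3.41, 2.46 and 3.41 FPKM and 1.15 FPKM in DMSO at day 12 and at 4.56, 7.72 and 7.31 FPKM and 6.09 FPKM in DMSO at day 20, whereas Foxl1, 8.79 kb from Foxc2, did not exceed 1.32 FPKM. The long noncoding RNA AI646519 overlaps Pax1, and at EB day 9 was at 0.25, 0.76 and 0.80 FPKM and listed at 0 in DMSO. Whether counting used strand is not given in the sources used here, so reads of AI646519 and of Pax1 cannot be told apart where they overlap.

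Outside the 10 genes, the courses closest to Foxf2 by the same r were those of the basic helix-loop-helix gene Ferd3l (0.96), Lum (0.94) and Corin (0.93). Pax1 was closest to Vgll2 (0.97), Hapln1 (0.94) and the forkhead gene Foxe1 (0.94). Meox1 was closest to Arg1 (0.96), the retinoic acid hydroxylase gene Cyp26b1 (0.96) and Hk3 (0.93). Twist1 was closest to Bmp5, a growth factor gene (0.95), Dipk2a (0.95) and Il11ra1 (0.92), and Osr1 to the T-box gene Tbx2 (0.94), Npr3 (0.92) and Cyp1b1 (0.90). Foxc1 was closest to Tmem119, Bicc1 and Col23a1 (0.95, 0.94 and 0.94), Foxf1 to Gng11, Oaf and Rcsd1 (0.93, 0.91 and 0.90) and Twist2 to Gng11, Tnni1 and Dipk2a (0.90 each). The lowest likeness was found for Foxc2, with Chsy1, Rfk and Smoc2 (0.88 each), and for Meox2, with Col9a1 (0.87), Mybpc3 (0.83) and Hbb-bh1 (0.80).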

How the data were processed

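RNA was sequenced in 32 libraries of mouse J1 cells. The authors deposited, per library and gene, an expected count (estimated reads, not normalised) and an FPKM, per the file headers, in the column layout of RSEM. Tools named in the submitters' processing notes are HISAT, Bowtie2 and RSEM, with mm10 as the build, and neither their roles nor versions are stated there. A gene not listed in a library was set to 0, and 78.8% to 80.6% of expected counts per library were whole (tolerance 0). Of 20612 Entrez identifiers, 20551 were found directly in RefSeq (GRCm38.p6), another 9 through a transcript, and 52 had no match. Total expected counts limit the precision of low genes, for which counting intervals are given.

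Expected counts were rounded and analysed with edgeR 4.0.16 in R 4.3.3, with TMM factors of 0.923 to 1.143, for genes at 1 CPM or more in at least 4 libraries (15632 genes in 32 libraries, 14872 in the 16 libraries of EB days 6 to 20). The 10 genes passed this filter, Meox2 and Pax1 through bisphenol libraries alone. Stages were compared with terms for stage and treatment (21 residual degrees of freedom), pairs of bisphenols with the same terms (9) and listed genes with 1 mean per stage and class (16). The SE was derived from the F value. Alternatives were RLE scaling, other filters, DESeq2 1.42.0, limma 3.58.1 on log2(FPKM + 1) and log2(FPKM + 0.1), no treatment term, and leaving out each treatment.

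The 10 genes and 12 companion lists (151 genes) were chosen with earlier results of these data known. All 10 genes are named. A log2 change with SE is given for those called, except Meox2 and Pax1 on the global path and genes at 1 to 3 counts. From a list, up to 3 higher and 3 lower called genes with the largest change and a stage mean of 1 FPKM or more are named. Col6a3, Tcf21 and Nkx3-2 are given as levels, Nkx3-2 after its values were seen. For likeness, the 3 genes with the highest r among tested genes with 5 FPKM or more in 1 library are named, gene models and pseudogenes passed over.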

Additional observations from a re-analysis of the deposited data

Results flagged for a closer look

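In 37 groups of 4 libraries (a gene at a stage, with a mean of 1 FPKM or more), the library farthest from the others was compared with Dixon's critical value for 4 samples at 95%, which chance passes in about 1 of 20 groups. That rate does not apply here, since the genes were chosen in part for the difference between bisphenol and DMSO libraries, so the values are a description and no test. The value was passed in 8 groups, each time by the DMSO library. On the global path the DMSO library was low. Twist1 was at 10.54 FPKM in DMSO at EB day 9, at 5.59 FPKM at day 12 and at 2.90 FPKM at day 20. Foxf2 was at 0.71 FPKM and Foxc1 at 1.73 FPKM in DMSO at EB day 12, and Foxf1 at 0.39 FPKM in DMSO at EB day 20. On the neural path the DMSO library was high, with Osr1 at 12.79 FPKM in RA EBs and at 2.65 FPKM in NPCs.

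For 3 genes every bisphenol value lay above DMSO at EB days 6 to 20 and every one below DMSO in RA EBs and NPCs. The mean log2 ratio of bisphenols to DMSO was 2.25 on the global path and -0.67 on the neural path for Foxf1, 2.36 and -0.67 for Foxc2, and 1.81 and -0.51 for Twist1. The difference between the paths was not tested, and in NPCs Foxf1 rests on 1 to 3 counts per library. The share of all genes with this pattern was not counted.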

How the results depend on the processing

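Of 42 calls of the 10 genes in comparisons of stages, 24 were kept under every alternative that gave a value, and none changed sign. The count at EB day 12 against day 9, 2 in the main fit, was 1 with the 5 CPM filter and with limma on log2(FPKM + 0.1), and 1 to 4 when a treatment was left out. The 5 CPM filter removed Meox2, and so did leaving out BPF or BPS. With limma on log2(FPKM + 1), whose added 1 shrinks changes of low genes, the count was 5 at EB day 9 against day 6 and 4 in RA EBs against EB day 4, and with limma on log2(FPKM + 0.1) it was 3 at EB day 20 against day 12. At EB day 9 against day 6 it was 4 to 9 when a treatment was left out. With limma on log2(FPKM + 0.1), 42 listed genes were called at EB day 9 (41 to 84 when a bisphenol was left out, 66 in the main fit) and 9 in NPCs. The cause of these 2 shifts was not tested. The median log2 ratio of bisphenols to DMSO with 1 FPKM added was 1.25, 2.07 and 1.28 at EB days 9, 12 and 20. At EB day 20 it was 2.94 with 0.01 FPKM added and 2.77 on TMM-scaled CPM. The fits of stages hold treatment as a term, and without it 41 of the 42 calls were kept. Depth limits members at 0 to 3 counts, such as Meox2 and Pax1 in DMSO.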
